A study of Mus musculus with 16 samples.

Results

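Natural killer (NK) cells of naive mouse spleen were taken from a matrix of sorted CD45+ cells by their UMIs, the unique molecular identifiers that count captured mRNA molecules in droplet scRNA-seq. A cell was called an NK cell when it had a UMI of at least 2 of the 5 genes Ncr1, Klre1, Klrk1, Klrb1c, and Gzma and no UMI of the T cell genes Cd3e, Cd3d, and Cd3g, the B cell gene Cd79a, or the myeloid gene Lyz2. This gate held 1127 of the 47060 cells of naive spleen, out of 59008 CD45+ cells in the matrices of naive spleen and rejecting kidney. The spleens came from naive C57BL/6J WT mice, which received no graft and no agent per the labels, and viable CD45+ cells were sorted after the spleen was ground through a strainer and red cells were lysed. The 5 tags in the cell barcodes were taken as 5 libraries. Rejecting kidneys were grafts of B6 kidney in DBA/2J recipients at 1 week after transplantation per the methods of the study, whereas their label gives the C57BL/6J WT strain, and they had 2 library tags. The ages and the number of naive mice are not given in the sources used here, so the p-values below measure the spread between libraries, which may be technical. CD45 is carried by all white blood cells, so the sort does not enrich for NK cells.

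NK cells are innate lymphocytes that kill infected, transformed, or foreign cells with perforin and granzymes and that secrete interferon-gamma and chemokines. They carry no rearranged antigen receptor and read the balance between activating receptors, such as NKp46 (Ncr1) and NKG2D (Klrk1), and inhibitory receptors for MHC class I, which in the mouse belong mostly to the Ly49 (Klra) and CD94/NKG2 (Klrd1, Klrc1) families. In mouse spleen, NK cells are known to mature from cells with CD27 and without CD11b (Itgam) to cells with CD11b that have lost CD27, under the T-box factors T-bet (Tbx21) and Eomes.

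The promoters below are shown because Ncr1 is a gene of the NK gate and because of the folds of Emb, Ltb, and Cma1. These are among the largest folds between NK cells with a UMI of Cd27 only and of Itgam only in this spleen. Each is the 250 bases before the RefSeq start in GRCm38.p6, written 5′ to 3′ on the strand of the gene. Capitals mark exact matches, on either strand, to TCACAC (a T-box core), TGTGGT (a Runx core), or CTTTGA (a TCF core).
Ncr1, chr7:4337465-4337714, plus strand: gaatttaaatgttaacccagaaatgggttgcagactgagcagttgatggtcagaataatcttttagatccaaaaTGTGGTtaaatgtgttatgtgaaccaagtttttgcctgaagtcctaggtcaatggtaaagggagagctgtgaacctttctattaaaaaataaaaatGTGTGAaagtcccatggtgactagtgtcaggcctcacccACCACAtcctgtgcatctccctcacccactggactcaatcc
Emb, chr13:117220323-117220572, plus strand: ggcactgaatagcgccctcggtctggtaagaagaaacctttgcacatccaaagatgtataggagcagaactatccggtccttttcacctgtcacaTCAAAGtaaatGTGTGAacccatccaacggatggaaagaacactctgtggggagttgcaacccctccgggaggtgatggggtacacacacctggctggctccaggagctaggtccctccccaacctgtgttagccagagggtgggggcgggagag
Ltb, chr17:35194257-35194506, plus strand: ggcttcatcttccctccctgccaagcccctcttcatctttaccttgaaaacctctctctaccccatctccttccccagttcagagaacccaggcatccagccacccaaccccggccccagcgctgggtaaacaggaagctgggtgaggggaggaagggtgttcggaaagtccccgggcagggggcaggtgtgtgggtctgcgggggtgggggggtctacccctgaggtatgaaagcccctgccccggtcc
Cma1, chr14:55944676-55944925, minus strand: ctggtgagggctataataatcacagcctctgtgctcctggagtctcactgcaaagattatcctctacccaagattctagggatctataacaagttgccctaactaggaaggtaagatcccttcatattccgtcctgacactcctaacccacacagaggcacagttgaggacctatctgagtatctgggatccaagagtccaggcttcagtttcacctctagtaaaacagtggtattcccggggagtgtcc
The Ncr1 window held 2 Runx matches and 1 T-box match, and the Emb window held 1 TCF match and 1 T-box match. The windows of Ltb and Cma1 held none of the 3 words, and none of the words overlaps another in these windows. Ncr1 has 2 start sites in RefSeq, and 1 of them is shown.

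NK cells were a small population in every library. Their share was 1.99% of the 11340 cells of library 1, 2.26% of 8052 cells of library 2, 2.66% of 9029 cells of library 3, 2.28% of 9063 cells of library 4, and 2.84% of 9576 cells of library 5. The mean was 2.41% ± 0.339 (SD, n = 5), and the pooled share was 2.39%, with an exact 95% binomial interval of 2.26% to 2.54% that covers counting error only. Libraries 3 and 5 were highest and library 1 was lowest, and the exact intervals of libraries 1 and 5 did not overlap. The gate gave 226, 182, 240, 207, and 272 NK cells in libraries 1 to 5.

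**Figure D1:**
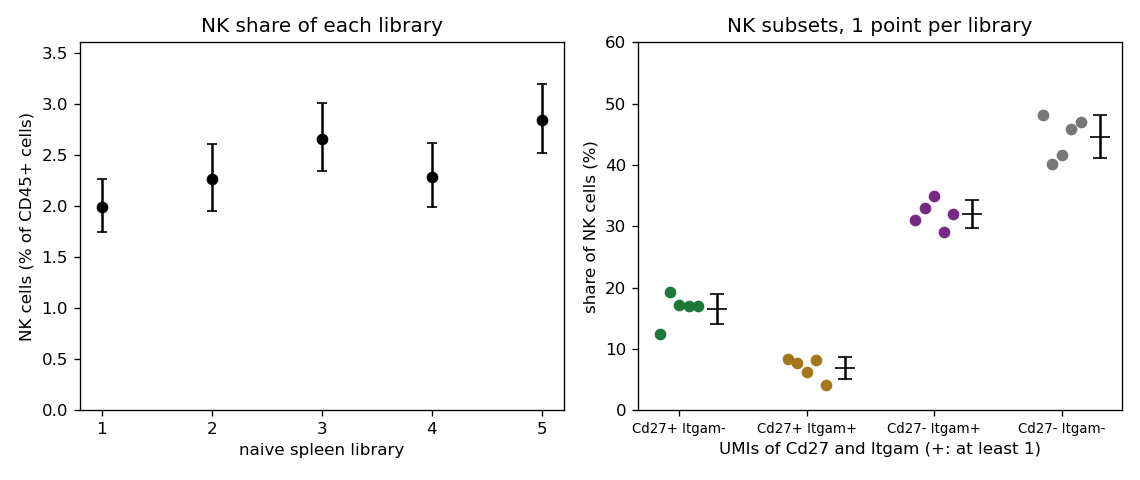
NK cells in naive spleen. On the left, the share of CD45+ cells inside the NK gate (%) is plotted for each of the 5 libraries with its exact 95% binomial interval, and it ranged from 1.99% to 2.84%. On the right, the share of NK cells (%) in each of 4 subsets by UMIs of Cd27 and Itgam is plotted with 1 point per library, beside the mean and SD, and cells with a UMI of neither gene were the largest subset in every library.

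The libraries held 30054753 to 37016197 UMIs over all cells, of which NK cells took 531183 to 770109 UMIs per library. The median NK cell had 2440 UMIs and 1268 genes, against a median of 3068 UMIs over all CD45+ cells, and the library medians of NK cells lay between 2063.5 and 2836. Of the NK cells, 717 (63.6%) had UMIs of all 5 gate genes, 335 (29.7%) of 4, 61 (5.41%) of 3, and 14 (1.24%) of exactly 2. Among the 14 cells just inside the gate Nkg7 was found in 71.4%, Eomes in 14.3%, Tyrobp in 92.9%, Fcer1g in 78.6%, and Klrd1 in 57.1%. Among 60 cells just outside, with a UMI of 1 gate gene, the shares were 5%, 3.33%, 76.7%, 70%, and 51.7%. The median depth was 2594.5 UMIs inside and 4538.5 UMIs outside. A further 735 cells had 2 or more NK genes but also an exclusion UMI, 536 of them of a CD3 gene. Cd79a was the only exclusion gene with a UMI in 163 of these cells and Lyz2 in 30. The 251 cells with a Cd79a UMI had a median of 5235 UMIs and often carried NK markers (Tyrobp in 82.5%, Eomes in 56.6%), and whether they are doublets was not tested. Across the naive libraries 477 of the 47060 cells had a barcode that occurred in more than 1 library. Of the NK cells, 11 shared a barcode with a cell of another library, and none shared one with another NK cell. Library 1 had the highest summed levels of myeloid markers in NK cells, where the libraries ranged from 3.77 to 83.6 CPM (UMIs per 1000000 UMIs of the NK cells), and its neutrophil markers were also at 83.6 CPM. A UMI of the hemoglobin gene Hbb-bs was found in 13.3% and of the neutrophil gene S100a8 in 10.2% of its NK cells.

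Markers that the gate did not use fit the NK label beside B cells, but some were also common in cells with NK genes and a CD3 UMI. Nkg7, a granule membrane protein of cytotoxic cells, had a UMI in 98.0% of NK cells, and its level was 2572, 2267, 2672, 2531, and 2763 CPM in libraries 1 to 5. Tyrobp, the DAP12 adaptor that couples activating receptors to Syk, was found in 99.0% of NK cells at 2372, 2626, 2554, 2675, and 2871 CPM. Fcer1g, the Fc receptor gamma chain, was found in 98.8% at 2036, 1828, 1958, 2117, and 2103 CPM. No library stood apart for these 3 genes. In B cells of the same libraries (28348 cells with a Cd79a UMI and no CD3 or Lyz2 UMI, median 2676 UMIs), UMIs were found in 0.970% for Nkg7, 12.7% for Tyrobp, and 1.88% for Fcer1g. Klrd1 (CD94) was found in 89.8% of NK cells and 0.977% of B cells, and Il2rb, the beta chain of the IL-2 and IL-15 receptors, was found in 84.2% of NK cells. Outside the gate, 451 cells with 2 or more NK genes and a CD3 UMI (median 4220 UMIs) had Nkg7 in 96.7%, Klrd1 in 81.4%, and Il2rb in 88.0%. These genes thus did not set NK cells apart from them, whereas Tyrobp was found in 39.9% and Fcer1g in 56.3%.

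**Figure D2:**
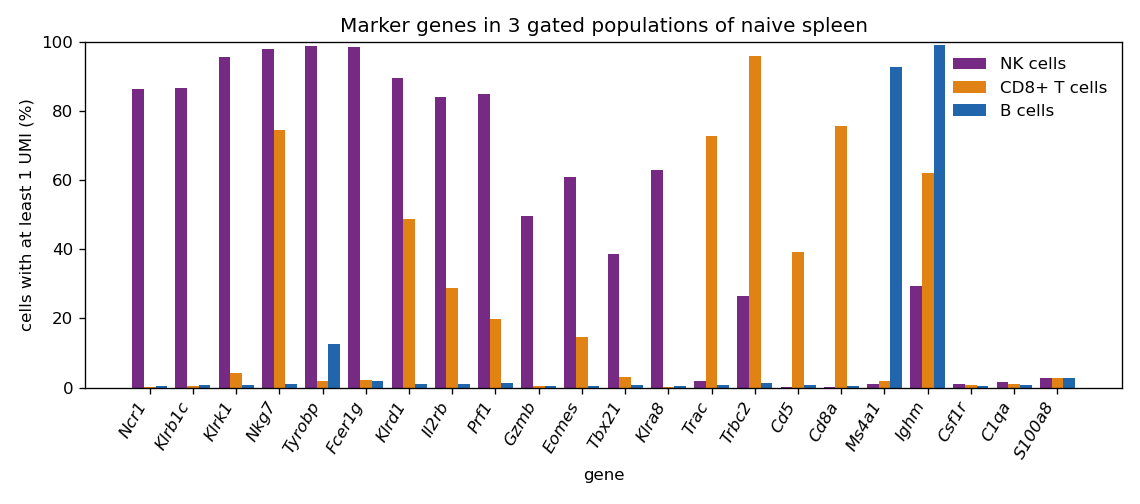
Marker genes in NK cells, CD8+ T cells, and B cells of naive spleen. Bars give the share of cells with at least 1 UMI of each gene (%), over 1127 NK cells, 4772 CD8+ T cells, and 28348 B cells. Tyrobp, Fcer1g, and Nkg7 were found in at least 98.0% of NK cells, whereas Trac and Cd5 were near 0. The gate itself set the bars of Ncr1, Klrb1c, and Klrk1.

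Most defining genes of other lineages had UMIs in few NK cells. Trac, the T cell receptor alpha constant gene, had a UMI in 1.86% of NK cells, Cd5 and Cd6 each in 0.0887%, Cd8a in 0.266%, and Cd4 in 0.177%. The B cell gene Ms4a1 (CD20) had a UMI in 1.06%, and the myeloid genes Csf1r and C1qa in 0.887% and 1.51%. No UMI of Siglech, Clec9a, Mcpt8, Pf4, Csf3r, Sdc1, or Alas2 was found in 1127 NK cells, which allows a share of cells with a UMI of up to 0.266% for each and sets no limit on expression. At least 1 marker of the dendritic cell list was found in 9.14% of NK cells, of the neutrophil list in 5.41%, and of the erythroid list in 4.79%. More frequent were Trbc2, the T cell receptor beta constant gene, in 26.5% of NK cells (96.1% of CD8+ T cells, median 4305 UMIs), and Ighm, the IgM heavy chain, in 29.3%. Ighm was also found in 62.2% of CD8+ T cells, which do not make it. The median depths differ (4305 UMIs against 2440 in NK cells), and the source of the Ighm UMIs was not tested. Trbc2 was found in 1.44% of B cells.

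The gate genes chose the cells and are given as a description. Ncr1 was at 796, 977, 856, 888, and 890 CPM in libraries 1 to 5, Klrb1c (NK1.1) at 824, 970, 844, 1020, and 890 CPM, and Klre1 at 970, 1090, 1061, 1108, and 1112 CPM. Library 1 was lowest for all 3 genes. Klrk1 was found in 95.7% of NK cells at 1520 ± 197 CPM (SD, n = 5). Gzma (granzyme A) was found in 95.4% at 9203 ± 797 CPM.

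Ly49 receptors, lectin-like receptors for MHC class I encoded together on chromosome 6, were spread unevenly over NK cells. The matrix lists 11 Ly49 genes, whose gene models in GENCODE (GRCm38) run from the start of Klra17 at base 129831154 to the end of Klra2 at base 131247362 of chromosome 6, all on the minus strand. Klra8 (Ly49H, the activating receptor for a cytomegalovirus protein) was found in 63.1% of NK cells at 843, 958, 874, 1114, and 963 CPM in libraries 1 to 5. It was found in 0.189% of CD8+ T cells and 0.504% of B cells. Klra4 (Ly49D, an activating receptor) was found in 54.3% of NK cells at 1033, 813, 878, 1007, and 1121 CPM. The highest library was library 4 for Klra8 and library 5 for Klra4. Of the inhibitory receptors, Klra9 (Ly49I) was found in 45.3% of NK cells at 347, 493, 501, 496, and 517 CPM, Klra7 (Ly49G) in 43.6% at 524, 292, 512, 387, and 392 CPM, and Klra3 (Ly49C) in 26.9% at 169, 179, 240, 259, and 181 CPM. Library 1 was low for Klra9 and highest for Klra7. The other 6 genes were found in fewer cells, with Klra1 (Ly49A) in 12%, Klra10 in 4.35%, Klra6 in 3.82%, Klra5 in 1.42%, and Klra2 and Klra17 in 0.0887% each. Members of this family are similar in sequence. Of the 90-base windows in the last 500 bases of the transcripts, 14.1% of those of Klra9, 10.2% of those of Klra7, and 8.52% of those of Klra3 occur in another Ly49 gene, against 0 for Klra8 and Klra4, so the counts of the former are less certain.

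Most NK cells had UMIs of several Ly49 genes. No Ly49 UMI was found in 80 cells (7.10%), 1 gene was found in 12.9%, 2 genes in 26.8%, 3 in 30.3%, 4 in 17.8%, 5 in 4.61%, and 6 in 0.532%. The share without a Ly49 UMI ranged from 3.38% to 9.89% over libraries (mean 7.10% ± 2.40, SD, n = 5). After each cell was thinned to 1000 UMIs, the share without a Ly49 UMI was 14.6%, and 2 genes were the commonest number, in 31.5%. The gate was applied again after thinning and then held 1221 cells, so that the depth and the cells both changed. The genes did not combine evenly. Klra8 was found in 71.4% of cells with a Klra4 UMI and in 53.2% of cells without one, and it was higher with Klra4 in 5 of 5 libraries, also after thinning (54.0% and 39.9%). Klra9 went the other way, found in 38.7% of cells with Klra7 and 50.3% of cells without it, and in 40.0% of cells with Klra4 and 51.5% of cells without it, lower in 5 of 5 libraries in both cases and after thinning. These shares are descriptions over cells of the same libraries.

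**Figure D3:**
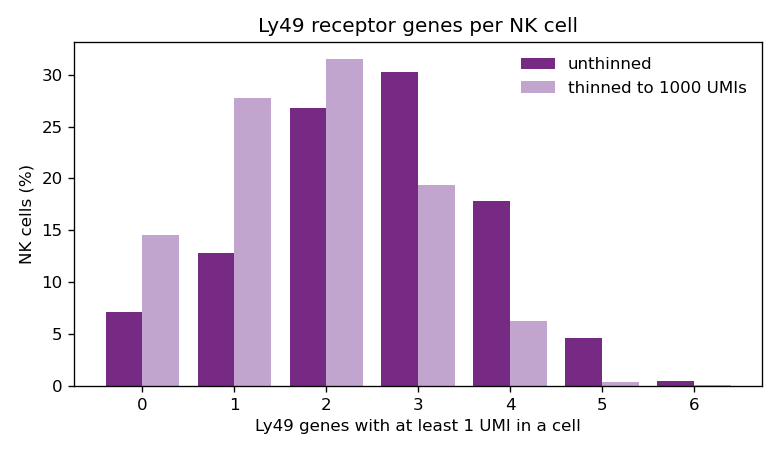
Number of Ly49 genes per NK cell. Bars give the share of NK cells (%) with at least 1 UMI of 0 to 6 Ly49 genes, for all UMIs of the 1127 NK cells and for 1221 cells inside the gate after thinning to 1000 UMIs per cell. The commonest number was 3 genes (30.3%) with all UMIs and 2 genes (31.5%) after thinning.

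The CD94 and NKR-P1 lectin receptors lie on the same chromosome. Klrc2 (NKG2C, an activating partner of CD94) was found in 79.1% of NK cells and was even over libraries, at 721, 753, 758, 735, and 750 CPM. Klrc1 (NKG2A, the inhibitory partner) was found in 338 cells at 202 ± 47.4 CPM (SD, n = 5). Klrb1f was found in 58.6% of NK cells, Klri2 in 48.1%, Klrb1a in 34.1%, Klrb1b in 20.9%, and Klrg1, an inhibitory receptor of terminally mature cells that binds cadherins, in 20.8%. Among other receptors, Cd244a (2B4) was found in 51.3% and Fcgr3, the CD16 Fc receptor, in 11%. No UMI of the checkpoint genes Pdcd1 and Ctla4 was found.

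Effector genes ranged from those found in nearly every NK cell to those found in few. Ccl5 (RANTES), a chemokine for T cells and monocytes, was found in 99.2% of NK cells at 15052, 12314, 15998, 14228, and 15955 CPM in libraries 1 to 5. Prf1 (perforin) was found in 84.9% at 888, 830, 848, 1043, and 1030 CPM. Gzmb (granzyme B) was found in 49.6% at 536, 324, 471, 335, and 283 CPM, and it varied more between libraries than Prf1, with libraries 1 and 3 highest. Ccl4 was found in 39.8% of NK cells and Ccl3 in 38.0%, and these neighboring chemokine genes tended to share cells, as Ccl4 was found in 52.3% of cells with a Ccl3 UMI and 32.0% of cells without one (38.8% and 18.9% after thinning). Ifng (interferon-gamma) was found in 23.6% of NK cells at 148, 132, 131, 104, and 74.0 CPM, Xcl1 (lymphotactin, which attracts cross-presenting dendritic cells) in 21.8%, Fasl in 24.6%, and Tnf in 0.71%. The inhibitor of granzyme B Serpinb9 was found in 53.9%. For the cytokines that act on NK cells, Il18rap and Il18r1, the chains of the IL-18 receptor, were found in 63.5% and 55.2% of NK cells, Il12rb2 in 19.1%, Il12rb1 in 2.66%, and Il7r in 5.59%.

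Of the transcription factors, Eomes was found in 61.1% of NK cells at 442, 380, 390, 551, and 520 CPM, and Tbx21 (T-bet) in 38.8% at 188, 181, 169, 186, and 207 CPM. Both were rare in B cells, at 0.402% and 0.688%. A Tbx21 UMI was about as common in cells with an Eomes UMI (38.3%) as in cells without one (39.5%). Zeb2, a repressor that acts late in NK maturation, was found in 81.1% of NK cells at 918, 874, 888, 965, and 1035 CPM. Id2, which blocks E proteins in all innate lymphoid cells, was found in 84.2%, Irf8 in 50.8%, Bhlhe40 in 30.4%, Tcf7 (TCF-1) in 18.6%, Gata3 in 18.2%, Prdm1 (Blimp-1) in 15.2%, and Nfil3 in 6.48%. For tissue entry and exit, Itga4 was found in 88.6% of NK cells, Ccr2 in 47.6%, Itga2 (CD49b) in 44.5%, S1pr5, the sphingosine-1-phosphate receptor that lets NK cells leave tissue, in 37.6%, and Cx3cr1 in 9.41%.

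Subsets were cut by UMIs of Cd27 and Itgam. A UMI of Cd27 alone (Cd27+ Itgam-) was found in 185 NK cells (16.4%), of both genes in 76 cells (6.74%), of Itgam alone (Cd27- Itgam+) in 361 cells (32.0%), and of neither in 505 cells (44.8%). Over libraries 1 to 5 the Cd27+ Itgam- share was 12.4%, 19.2%, 17.1%, 16.9%, and 16.9%, with library 1 lowest. The Cd27- Itgam+ share was 31.0%, 33.0%, 35%, 29.0%, and 32.0%. The share with both was 8.41%, 7.69%, 6.25%, 8.21%, and 4.04%, with library 5 lowest, and the share with neither was 48.2%, 40.1%, 41.7%, 45.9%, and 47.1%. The means were 16.5% ± 2.50, 32.0% ± 2.24, 6.92% ± 1.82, and 44.6% ± 3.52 (SD, n = 5) in this order, and no library put the subsets in a different order of size. The cells with neither gene cannot be read as lacking both proteins, as their median depth of 2276 UMIs was below the 2925 of Cd27+ Itgam-, 2869 of Cd27+ Itgam+, and 2426 of Cd27- Itgam+ cells, and after thinning to 1000 UMIs they made up 72.9% of NK cells. Cd27 UMIs were found in 23.2% of NK cells, 62.0% of CD8+ T cells, and 5.51% of B cells, and Itgam UMIs in 38.8%, 0.126%, and 0.649%. An Itgam UMI was found in 29.1% of NK cells with a Cd27 UMI and in 41.7% of those without one, so that both genes met in 6.74% of cells against 8.98% for the product of their shares.

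The comparison of Cd27- Itgam+ with Cd27+ Itgam- NK cells asks which genes differ between cells cut by UMIs toward the mature and the immature end. A cell without a UMI of Cd27 or Itgam may still carry the gene. After thinning to 1000 UMIs these subsets held 17.4% and 8.44% of NK cells. Cma1, Ly6c2, Gzmb, Klrg1, Zeb2, and Prf1 were higher in Cd27- Itgam+ cells, and Ltb, Emb, Cd160, Cd7, Tcf7, and Xcl1 were lower. UMIs of each subset were summed per library (87889 to 180453 UMIs for Cd27+ Itgam- and 165533 to 255780 for Cd27- Itgam+ cells), and edgeR's quasi-likelihood test was run with the library as a block. Of 2837 genes tested 153 (5.39%) passed the threshold of 0.05 on the Benjamini-Hochberg adjusted p, with 63 (2.22%) higher and 90 (3.17%) lower in Cd27- Itgam+ cells, and the median log2 fold change was 0.04. The share of the called genes that were higher was 41.2%, and it was 30.6% with TMM factors and 20.5% with DESeq2. Cd27 and Itgam, which chose the subsets, and the gate genes are not read as results.

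Genes of the late maturation list were higher in Cd27- Itgam+ cells. This list, like the others, was chosen with earlier results of these data known, so its counts are a description. Of its 14 genes 10 were tested, and 9 of these 10 were higher and none lower, with a median log2 fold change of 0.99, against 2.22% of all tested genes called higher. Klrg1 was at 199, 153, 180, 108, and 230 CPM in Cd27- Itgam+ cells of libraries 1 to 5 and at 34.1, 27, 27.7, 41.9, and 67.2 CPM in Cd27+ Itgam- cells, a log2 fold change of 2.13 ± 0.28 (SE; edgeR adjusted p = 4.6e-07). Cma1 (mast cell chymase, a serine protease that NK cells also transcribe) was at 375, 313, 352, 339, and 498 CPM against 56.9, 89.9, 105, 58.7, and 151 CPM (log2 fold change 1.98 ± 0.19, edgeR adjusted p = 3.7e-10). The groups did not overlap for either gene. Ly6c2 (Ly6C) was at 556, 684, 461, 652, and 547 CPM against 114, 414, 66.5, 134, and 84.0 CPM, so that only library 2 had a high level in Cd27+ Itgam- cells (1.94 ± 0.20, edgeR adjusted p = 1.4e-09). Gzmb was at 719, 425, 594, 501, and 386 CPM against 330, 198, 133, 126, and 193 CPM (1.48 ± 0.17, edgeR adjusted p = 1.6e-08). Zeb2 was at 1202, 1014, 1189, 1045, and 1254 CPM against 603, 530, 443, 587, and 764 CPM (0.99 ± 0.11, edgeR adjusted p = 9.6e-09), with no overlap. Prf1 (0.87), S1pr5 (1.00), Spn (CD43, 0.59), and Klf2 (0.44), the factor that drives S1pr1, were also higher. Tbx21 was the listed gene tested that was not called (log2 fold change 0.50, edgeR adjusted p = 0.14).

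Genes of the early maturation list were lower. This list was also chosen with earlier results known, and its counts are a description too. Of its 14 genes 9 were tested, and 7 of these 9 were lower and none higher, with a median log2 fold change of -1.35, against 3.17% of all tested genes called lower. Ltb (lymphotoxin beta, a membrane cytokine that organizes lymphoid tissue) was at 12.1, 23.6, 19.5, 70.0, and 37.5 CPM in Cd27- Itgam+ cells and at 182, 342, 166, 226, and 202 CPM in Cd27+ Itgam- cells (-2.74 ± 0.28, edgeR adjusted p = 1.4e-09). Emb (embigin, a membrane glycoprotein) was at 115, 76.7, 58.6, 70.0, and 69.7 CPM against 307, 584, 454, 360, and 176 CPM (-2.29 ± 0.21, edgeR adjusted p = 6.1e-11). Neither gene had overlapping groups. Cd160, a receptor of the immunoglobulin family, was at 66.5, 53.1, 50.8, 53.9, and 69.7 CPM against 68.3, 180, 222, 235, and 252 CPM, and in library 1 it hardly differed (-1.73 ± 0.25, edgeR adjusted p = 4.6e-06). Cd7 was at 121, 142, 149, 135, and 204 CPM against 307, 512, 532, 394, and 445 CPM (-1.56 ± 0.16, edgeR adjusted p = 1.7e-09). Tcf7, the factor of early lymphoid cells, was at 48.3, 70.8, 62.6, 97.0, and 26.8 CPM against 182, 144, 133, 184, and 151 CPM (-1.35 ± 0.26, edgeR adjusted p = 0.000298). Xcl1 (-0.99 ± 0.21) and Ctla2a (-0.62) were also lower, Thy1 missed the threshold (-0.84, edgeR adjusted p = 0.0585), and Cd69 had a log2 fold change of 0.36 and was not called.

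**Figure D4:**
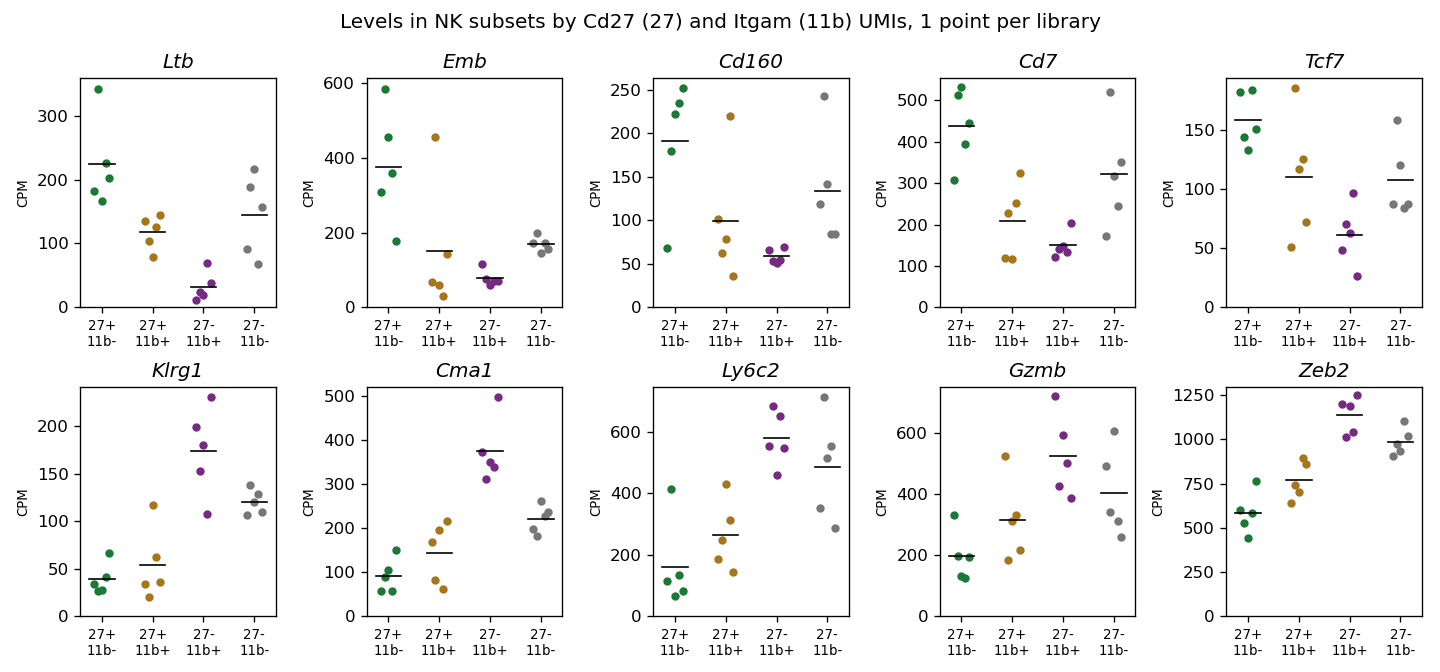
Levels of 10 genes in NK subsets. Each point is the level (CPM) of 1 library in cells with (+) or without (-) a UMI of Cd27 (27) and Itgam (11b), and the bar is the mean of 5 libraries. Ltb fell from a mean of 224 CPM in Cd27+ Itgam- cells to 32.6 CPM in Cd27- Itgam+ cells, and Zeb2 rose from 586 to 1141 CPM.

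Cells with UMIs of both genes, or of neither, lay between these subsets in mean level for the genes plotted. Klrg1 had a mean of 39.6 ± 16.6 CPM in Cd27+ Itgam-, 54.1 ± 38.5 in Cd27+ Itgam+, 174 ± 46.6 in Cd27- Itgam+, and 121 ± 13.2 in cells with neither (SD, n = 5). Cma1 had means of 92.4 ± 38.8, 145 ± 68.5, 375 ± 72.3, and 222 ± 31.2 CPM in the same order. Ltb had means of 224 ± 69.7, 117 ± 26.6, 32.6 ± 22.9, and 144 ± 62.7 CPM. These levels in the other subsets were not tested.

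Receptor, adhesion, and factor genes moved in smaller numbers. Of the 11 Ly49 genes 6 were tested, and 4 were higher in Cd27- Itgam+ cells and none lower (median log2 fold change 0.45), against 2.22% of all tested genes higher and 3.17% lower, the shares for the lists that follow too. These were Klra3 (264 against 114 CPM, 1.17 ± 0.20, edgeR adjusted p = 9.9e-05), Klra9 (594 against 280 CPM, 1.10 ± 0.14, edgeR adjusted p = 3.3e-07), Klra8 (0.48), and Klra4 (0.42), whereas Klra7 (0.21) and Klra1 (-0.33) did not pass. Klra4 turned to -0.34 after thinning to 1000 UMIs. Of 13 trafficking and adhesion genes tested 5 were higher and 1 was lower. Itgb2 (CD18, the beta chain that pairs with CD11b, 0.65), Itga2 (0.62), Itga4 (0.51), Spn, and S1pr5 were higher, and Ccr2, a receptor for monocyte chemoattractants, was lower (301 against 520 CPM, -0.81 ± 0.14, edgeR adjusted p = 0.000117). Of 18 transcription factors tested 3 were higher (Zeb2, Irf8 at 0.74, and Klf2) and 1 was lower (Tcf7), and Eomes had a log2 fold change of 0.10 (edgeR adjusted p = 0.82). Of 10 cytokine receptors 1 was higher, Il18rap (0.66). Of 7 cytokine genes Ccl3 (0.79) and Ccl5 (17017 against 11000 CPM, 0.64) were higher and Ltb and Xcl1 lower, and Ifng had 0.40 (edgeR adjusted p = 0.46). None of the 7 immediate early or 4 heat shock genes passed. Among genes with the largest folds outside these lists, Creb1 (165 against 64.9 CPM, 1.33 ± 0.25), Pcmtd2 (1.17), Cpne1 (1.16), and Setbp1 (1.09) were higher, and Cd226 (DNAM-1, an activating receptor, -1.09), Zfp512 (-1.08), and Serpina3g (-1.08) were lower. Of 83 ribosomal protein genes 48 were lower and none higher (against 3.17% and 2.22% of all genes tested), with a median log2 fold change of -0.26, which was -0.32 with TMM factors and -0.31 with DESeq2. Without the block 10 of them were lower, and 30 to 49 were lower when a library was left out. Of the genes named in this paragraph and the late list, the calls of Klra4, Klra8, Itga2, Klf2, and Ccl3 were lost with DESeq2, without the block, and without at least 1 of the libraries. Those of Spn and Il18rap were lost with DESeq2 and without at least 1 library, those of Cd226, Setbp1, and Pcmtd2 without the block and without at least 1 library, and those of Cpne1, Serpina3g, and Xcl1 without at least 1 library. After thinning to 1000 UMIs the calls of Ccr2 (-0.56), Irf8 (0.67), Spn (0.50), Il18rap (0.65), and Klra8 (0.33) were lost.

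The number of calls in the subset comparison depended on the fit. Without the library as a block 59 genes passed, 30 higher and 29 lower, and 93, 97, and 94 genes passed without library 1, 3, or 5. With DESeq2, which gave no adjusted p for 1985 genes, all 4 of the called early genes with an adjusted p stayed lower, and 6 of 8 such late genes stayed higher. In these same cells, the summed ILC1 markers were at 137 to 602 CPM in Cd27+ Itgam- and 19.5 to 84.6 CPM in Cd27- Itgam+ libraries, summed cell cycle genes were at 108 to 2034 and 80.4 to 840 CPM, and summed T cell markers were at 182 to 444 and 85.7 to 232 CPM. Of the latter Trbc2 was lower in Cd27- Itgam+ cells (154 against 316 CPM, -1.01 ± 0.18, edgeR adjusted p = 0.000127), lower in 5 of 5 libraries. The part of T cells or of T cell receptor transcripts in the other differences was not tested. Without the cells with 3 or more ILC1 markers 111 genes passed, 109 of them also called with all cells, and the late list kept 9 higher genes while the early list had 6 lower. Car2, Fcer1g, Itga2, Klra4, Klra8, Klrd1, Nkg7, Serpina3g, Setbp1, Top2a, and Xcl1 were then no longer called, several with similar log2 fold changes (Top2a -1.22 with all cells and -1.25 without these, Itga2 0.62 and 0.55, Nkg7 0.26 and 0.21), but Xcl1 moved from -0.99 to -0.56 and Car2 from -0.63 to -0.38. Without the cells with 3 or more cell cycle genes 156 genes passed, 128 of them also called with all cells.

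In the promoters, the share with a Runx core was 21.7% over the 46 of 63 higher genes that have an entry, 13.1% over 61 of the 90 lower genes, 10.4% over the 2278 tested genes with an entry, and 14.2% over all 27025 promoters. The T-box core was found in 6.52%, 14.8%, 8.60%, and 12.2% of these, and the TCF core in 10.9%, 4.92%, 9.75%, and 14.1%. Klrg1 has no entry. These are letter matches in 250 bases and say nothing about binding.

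A few cells inside the gate carried markers of type 1 innate lymphoid cells (ILC1), relatives of NK cells that reside in tissue and depend less on Eomes. Of 9 listed markers (Itga1, Cd200r1, Tmem176a, Tmem176b, Cxcr6, Il7r, Inpp4b, Tnfsf10, and Rora) at least 3 had a UMI in 23 cells (2.04% of NK cells), with 3, 6, 5, 4, and 5 cells in libraries 1 to 5. Their median depth was 3408 UMIs against 2431 in the other 1104 NK cells. After thinning, 6 of 1221 cells (0.491%) met this cut. Of the 23 cells 12 were Cd27+ Itgam- and 11 had a UMI of neither gene, and 22 had no Ly49 UMI, which makes them 27.5% of the NK cells without one. Genes of the early list were common in them, as Ltb was found in 100% of them and 14.2% of the other NK cells, Cd7 in 95.7% and 38.0%, Cd160 in 78.3% and 18.6%, and Xcl1 in 78.3% and 20.7%. Kit, Ikzf2 (Helios), and Ahr, genes known from other innate lymphoid cells, were found in 43.5%, 52.2%, and 30.4% of them and in 5.71%, 5.89%, and 1.99% of the others. Cd74, H2-Ab1, and H2-Aa were found in 34.8%, 26.1%, and 13.0% of them and in 10.2%, 7.07%, and 5.89% of the others. Whether any of them are doublets was not tested. Of the markers that chose them, Il7r was found in 87.0%, Tmem176b in 60.9%, and Itga1, Inpp4b, and Tnfsf10 in 26.1% each. Of other NK genes, Eomes was found in 1 cell (4.35%, exact 95% interval 0.110% to 21.9%) against 62.3% of the others. Zeb2 was found in 8.70% against 82.6%, Gzmb in 4.35% against 50.5%, and Prf1 in 30.4% against 86.1%. No UMI of Itgam, S1pr5, Cma1, Klrg1, Klra4, or Klra8 was found in the 23 cells, where the exact 95% interval of the share of cells with a UMI reaches 14.8% for each and sets no limit on expression. Tbx21 was about as common in both (39.1% and 38.8%), as was Nkg7 (91.3% and 98.2%), Trac was found in none of the 23, and Trbc2 was found in 52.2% of them and 26.0% of the others. Of the gate genes, Ncr1 was found in 91.3% of them, whereas Gzma was found in 17.4%. Cells were grouped by the listed markers after earlier results of these data were known, and no test was made between them.

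**Figure D5:**
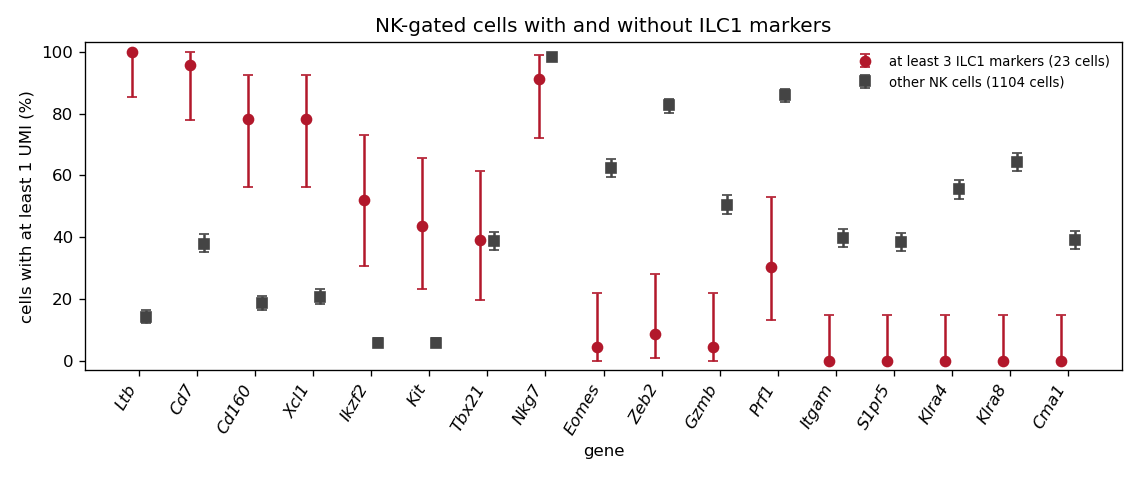
NK-gated cells with at least 3 of 9 ILC1 markers (23 cells, circles) and other NK cells (1104 cells, squares). Points give the share of cells with at least 1 UMI of each gene (%) and bars the exact 95% binomial interval. Ltb, Cd7, Cd160, and Xcl1 were found in at least 78.3% of the former, whereas Itgam, S1pr5, Klra4, Klra8, and Cma1 were found in none of them.

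NK cells with UMIs of several cell cycle genes were rare in naive spleen. At least 3 of 10 cell cycle genes (Mki67, Top2a, Birc5, Pclaf, Stmn1, Ube2c, Ccnb2, Tyms, Rrm2, and Cdk1) had a UMI in 24 NK cells (2.13%), with 8, 3, 8, 4, and 1 cells in libraries 1 to 5. They made up 6.49% of Cd27+ Itgam-, 2.63% of Cd27+ Itgam+, 1.39% of Cd27- Itgam+, and 0.990% of cells with neither gene. Their median depth was 7844 UMIs, above the 95th percentile of 4832 UMIs over NK cells, and after thinning 17 of 1221 cells (1.39%) met the cut, none of them Cd27+ Itgam-. As the gate was applied again after thinning, depth and membership both changed, and no order of the subsets is read from these shares. No doublet caller was run.

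NK cells were compared with CD8+ T cells of the same libraries, the other cytotoxic lymphocytes of the spleen. Against CD8+ T cells with fewer than 2 NK genes, the adaptors Tyrobp and Fcer1g, the granule genes Gzmb and Prf1, and the chemokine Ccl5 were higher in NK cells. The T cell genes Cd5 (log2 fold change -8.41) and Cd6 (-8.38) and most interferon-stimulated genes tested were lower. CD8+ T cells were gated by a UMI of a CD3 gene and of Cd8a or Cd8b1, with none of Cd4, Cd79a, and Lyz2 and fewer than 2 NK genes, which gave 4772 cells, and genes of either gate are left out. Of 9122 genes tested, 5995 (65.7%) passed in edgeR with the library as a block, 4916 (53.9%) higher and 1079 (11.8%) lower in NK cells. The median log2 fold change of all genes was 0.43, and 82.0% of calls were higher, whereas with TMM factors 49.7% of 4481 calls were higher, so the folds below are to be read against this shift.

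NK receptor genes entered this test mostly through the NK cells, where they are high, and the CD8+ T cell gate removed cells with NK genes, so their number is not read as a result. The gate also bears on effector genes and factors, whose folds hold only for the CD8+ T cells left in it. Outside both gates were 451 cells with a CD3 UMI and 2 or more NK genes (Cd8a in 22.6%). Among them Ccl5 was found in 96.9%, Nkg7 in 96.7%, and Eomes in 40.8%. Tyrobp was at 2620 ± 182 CPM against 8.21 CPM (log2 fold change 8.22), Fcer1g at 2008 ± 119 against 10.4 CPM (7.52), and Klra8 had a log2 fold change of 10.63 ± 0.14. The kinase Syk (5.21) and the adaptor Lat2 (6.52) were higher and the T cell adaptor Lat was lower (-2.15). Among granule genes Gzmb was at 390 ± 108 CPM against 2.70 CPM and Prf1 at 928 ± 101 against 52.8 CPM (4.14). Ccl5 was at 14709 ± 1525 against 718 CPM (4.40) and S1pr5 at 188 ± 38.8 against 0.461 CPM (8.50), whereas S1pr1 (57.1 against 309 CPM, -2.43), Ccr7 (-6.22), Il7r (67.3 against 693 CPM, -3.37), and Ltb (-2.52) were lower. Much of the Il7r level came from the 23 cells with ILC1 markers, chosen in part by this gene, which held 114 of its UMIs and left the other NK cells at 31.3 CPM. Of 25 transcription factors 19 were higher and 5 lower, against 53.9% and 11.8% of all genes tested, but 13 of the 19 stayed called with TMM factors and 12 with DESeq2. Ets1 and Tox turned negative under both. Zeb2 (936 ± 65.5 against 8.36 ± 2.98 CPM, 6.76), Irf8 (5.25), Prdm1 (4.79), Tbx21 (186 against 8.07 CPM, 4.53), Id2 (3.39), and Eomes (457 against 50.1 CPM, 3.18) were higher, and Tcf7 (103 against 414 CPM, -2.02) and Lef1 (-2.81) were lower. Of 11 interferon-stimulated genes 9 were lower and none higher (median -1.37). Among them Ifi27l2a was at 11 ± 4.15 CPM against 319 ± 64.1 CPM (-4.82) and Ly6a (Sca-1) at 1.94 against 26.9 CPM (-3.76). Slfn1 was at 0 in NK cells of every library and at 126 ± 5.27 CPM in CD8+ T cells, and Dapl1 (1.24 against 397 CPM, -8.20) and Themis (0.843 against 206 CPM, -7.65), a T cell signaling protein, were also among the genes with the largest folds. On the other side, Klra8 was followed by Cma1 (10.30), Klra4 (10.05), Klrb1a (9.97), and Klri2 (9.91).

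NK cells of naive spleen were also set beside those of rejecting kidneys, the other CD45+ matrix used here. Klra8, Klra4, Klrd1, Klrc2, Klf2, and Cma1 were higher in the splenic cells, and Irf8, Gzmb, and Havcr2 were lower. The same gate gave 251 of 11948 kidney cells (2.10%), with a median of 1429 UMIs. Strain, tissue, transplantation, enzyme digestion, and the processing of the matrices cannot be told apart in this comparison. Of 7459 genes tested 2520 (33.8%) passed in edgeR, 902 (12.1%) higher and 1618 (21.7%) lower in naive spleen, and without kidney library 1 the number was 1514. Genes with long introns were lower in spleen, and the median fell in each of 10 groups of rising intron length. In the 10% of genes with the shortest introns (median 566 bases) the median log2 fold change was 0.51, and in the 10% with the longest (median 165075 bases) it was -1.31, with 69.3% of these genes called lower.

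The Ly49 receptors differed gene by gene between the 2 sources, with 5 of 9 tested genes higher and 2 lower in naive spleen, against 12.1% and 21.7% of all genes tested. Klra8 had no UMI in either kidney library, so it was at least 136-fold higher in spleen against a floor of 3 counts over the group (7 CPM). Klra4 was at 970 ± 124 CPM in spleen and at 8.54 and 0 CPM in the kidney libraries, and Klra9 was at 471 ± 70.0 CPM against 137 and 109 CPM (1.93). Klra5 (10.2 CPM against 124 and 155 CPM, -3.72) and Klra3 (206 CPM against 418 and 347 CPM, -0.89) were lower in spleen. Ly49 genes are known to differ between mouse strains. For these and for the genes below, strain cannot be told apart from tissue and transplantation. Klrd1 (1119 CPM against 145 and 93.2, 3.21), Klrc2 (744 against 115 and 98.4, 2.79), Cma1 (237 against 17.1 and 10.4, 4.06), and Klf2 (998 ± 173 against 115 and 109, 3.15) were higher in spleen. S1pr1 had no UMI in kidney NK cells and was at least 8.16-fold higher in spleen. Gzmb (390 against 897 and 694 CPM, -1.03), Irf8 (369 against 2139 and 1357 CPM, -2.25), and the checkpoint gene Havcr2 (TIM-3, 0.329 against 64.0 and 51.8 CPM, -6.68) were lower in spleen. Among the largest folds outside the lists, Trim12a (191 ± 9.37 CPM) and Khdc1a (79.2 ± 21.7 CPM) had no UMI in kidney NK cells, and Camk2n1 was at 132 against 2.13 CPM (5.67). Slc24a3 had no UMI in splenic NK cells (236 CPM in kidney), and Cmss1 (8.36 against 2810 CPM, -8.35), Camk4 (0.908 against 298 CPM, -7.98), and Cxcl9 (1.44 against 193 CPM, -6.71), an interferon-induced chemokine of myeloid cells, were lower in spleen. Inpp4b, 1 of the ILC1 markers, was among the largest folds too (5.66 against 570 CPM, -6.64) and is in the group with the longest introns. The part of intron length in the other folds was not tested. Eomes (0.23), Tbx21 (-0.42), and Prf1 (-0.25) did not pass. Of 13 granule genes tested 3 were higher and 7 lower, with the calls of Serpinb9, Serpinb6b, Ctsc, Ctsd, and Gzmm lost when a kidney library was left out, and of 8 ILC1 markers 1 was higher and 5 lower, against 21.7% of all genes called lower. Among the called markers, in either direction, Itga1, Inpp4b, and Rora are in the group with the longest introns, and the calls of Cxcr6 and Il7r were lost without 1 of the kidney libraries. Among the named genes, 40 of 121 lost the call when some library was left out. The summed myeloid markers were at 72.3 to 186 CPM in kidney NK cells against 3.77 to 83.6 CPM in spleen, and their part in these differences was not tested. After thinning, the subsets by Cd27 and Itgam made up 8.55%, 1.32%, 17.4%, and 72.7% of splenic and 5.05%, 0.875%, 14.8%, and 79.3% of kidney NK cells (Cd27 only, both, Itgam only, neither). The exact two-sided permutation tests over 5 against 2 libraries gave p = 0.1905, 0.7619, 0.1905, and 0.09524. The last is the smallest p that this form of the test can give with these numbers of libraries.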

How the data were processed

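Viable CD45+ cells of naive spleen and of rejecting kidney were profiled with the 10x Chromium 3′ assay. The authors mapped reads with Cell Ranger (version not given in the sources used here) to mm10, per the submitters' processing notes, filtered cells by UMIs, mitochondrial content, and genes with limits that the sources do not give, and deposited raw UMI counts per cell. The deposited naive spleen matrix lists 17644 genes and the kidney matrix 32285, and the kidney comparison used the 17644 genes in both. Files of accepted mice and the other CD8+ T cell files were not used here.

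Cells were gated by UMIs, and library tags in the barcodes named the libraries. UMIs were summed per library and population, scaled to CPM by plain totals, and tested with edgeR 4.0.16 (R 4.3.3; filterByExpr, quasi-likelihood test, Benjamini-Hochberg adjustment). Both subsets, and NK and CD8+ T cells, come from the same libraries, so the library was a block in these tests. DESeq2 1.42.0 and TMM factors were alternatives. Exact intervals and permutation tests used scipy 1.17.1, and thinning used seed 1. Intervals cover counting error only. On simulated data with 100 genes changed by each fold, edgeR recovered 44% of 2-fold and 66% of 4-fold changes for the subsets (2984 genes), 34% and 83% for the kidney comparison (7187 genes), and 81% and 96% for CD8+ T cells (8961 genes). The spread in the simulated data was set by hand and not estimated from these libraries, so recovery in the real data may differ.

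The members and gene lists were chosen with earlier results of these data known. Named were the members of the lists and, for each test, the called genes of largest fold whose mean level reached 50 CPM, 10 per direction for the subsets and 5 for the others, without gate, mitochondrial, ribosomal protein, immunoglobulin, T cell receptor, and predicted genes. Gene coordinates are from GENCODE for GRCm38 and promoters from RefSeq for GRCm38.p6. The values of some listed genes are not reported here.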

Additional observations from a re-analysis of the deposited data

Results flagged for a closer look

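In 135 sets of 5 library values, 7 held a library far from the other 4, and chance alone flags about 1 in 20 sets, or 6.75 here. In library 1, Klra9 was at 347 CPM in NK cells against 493 to 517 CPM in the other libraries. In library 2, Lamp1 was at 109 CPM against 75.7 to 79.4 CPM, and Il2rg at 318 CPM against 295 to 298 CPM. In library 5, Foxo1 was at 75.7 CPM against 64.8 to 67.9 CPM, and 3 heat shock genes were also far above the others, with Dnajb1 at 151 CPM against 81.0 to 93.5 CPM, Hsp90aa1 at 813 CPM against 443 to 514 CPM, and Hsph1 at 145 CPM against 55.1 to 80.1 CPM.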

How the results depend on the processing

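The NK share of CD45+ cells was 2.32% to 2.61% under the other gates and filters and 2.28% to 2.52% when each library was left out. All of these gates kept Cd79a and Lyz2 as exclusion genes. These were the only exclusion gene with a UMI in 163 and 30 cells with 2 or more NK genes, respectively. Thinned to 1000 UMIs, with the gate applied again, the subset shares were 8.44% (Cd27 only), 1.31% (both), 17.4% (Itgam only), and 72.9% (neither), with 2 UMIs required for a positive cell 5.59%, 0.71%, 14.2%, and 79.5%, and when a library was left out 15.9% to 17.4%, 6.33% to 7.60%, 31.2% to 32.7%, and 44.0% to 45.7%. In the subset comparison 88 genes passed in DESeq2 (18 higher, with no adjusted p for 1985 genes), 59 without the replicate block (30 higher and 29 lower), 58 after thinning (20 higher and 38 lower), and 93 to 164 when a library was left out (31 to 63 higher and 57 to 101 lower). Of the 41 called named genes, 13 lost the call without the block and 19 when some library was left out, Klra4 turned to -0.34 after thinning, and Hist1h2ap, lower with all cells (-1.29), turned to 0.77 without the cells with cell cycle genes. The subsets without those cells or without ILC1-marker cells were chosen after seeing the data. Against rejecting kidney, leaving out a library gave 1514 to 2462 genes (452 to 854 higher and 1062 to 1608 lower), the gate of at least 3 NK genes gave 599 higher, and thinning gave 1550 (564 higher and 986 lower). Mki67, lower in spleen with both kidney libraries (-1.75), ranged from -2.62 without kidney library 1 to 0.20 without kidney library 2. TMM factors raised the share of higher calls there from 35.8% to 44.7%. Against CD8+ T cells, 5861 genes passed without the replicate block, 5531 to 5756 when a library was left out (4541 to 4712 higher and 990 to 1044 lower), 2895 after thinning (2424 higher and 471 lower), 2225 higher and 2256 lower with TMM factors, and 3146 in DESeq2 (1554 higher). With TMM factors and DESeq2 respectively, the log2 fold changes turned negative for Hsp90aa1 (-0.10 and -0.11), Il2rg (-0.14 and -0.15), Ets1 (-0.26 and -0.26), Tox (-0.088 and -0.098), Ly6c2 (-0.22 and -0.23), Vav1 (-0.014 and -0.015), Dnajb1 (-0.19 and -0.20), Zap70 (-0.18 and -0.19), and Lamp1 (-0.17 and -0.17), and Ikzf2 turned to 0.33 after thinning. The cause of these changes was not tested.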
